A study of Mus musculus with 2 samples.

Results

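The genes described here are 31 genes of cholesterol synthesis and of the control of sterol and fatty acid supply, found by symbol in a table of 18067 genes. They comprise 7 enzymes from acetyl-CoA to farnesyl diphosphate (the mevalonate arm), 11 enzymes from squalene synthesis to cholesterol, 5 genes of sterol sensing, 3 genes of sterol transport and 5 enzymes of fatty acid synthesis. The study compared RNA of cells, small intestinal stem cells by their label, from a mouse with circBtnl1 wild-type genotype and from a circBtnl1 knockout mouse. circBtnl1 carries the name of Btnl1, a butyrophilin-like gene, and circular RNAs are closed loops formed by back-splicing. There was 1 library for each genotype, and age, sex, strain, treatment and how the deletion was made were not given in the sources used here. Every difference below is therefore a difference between 2 libraries that cannot be set against the spread between mice, and no test was made. The libraries also differed in Y-linked RNA, given below, which cannot be told apart from genotype.

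Cells make cholesterol from acetyl-CoA through mevalonate, farnesyl diphosphate and squalene. The supply is set by SREBP factors, encoded by Srebf1 and Srebf2, which are held in the endoplasmic reticulum together with Scap by the Insig proteins when sterols are plentiful and travel to the Golgi to be cut free when sterols are scarce. The freed factors raise the genes of the pathway together, Srebf2 chiefly those of cholesterol and Srebf1 chiefly those of fatty acids. In the intestine this synthesis supplies membranes of the rapidly renewed epithelium, while LXR factors raise the sterol exporters of the Abc family.

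Values are TPM, a length-corrected share of all transcripts in a library, and genes that averaged 1 TPM or more are called measured (12666 genes, all 31 members among them). For the median measured gene the log2 ratio of knockout to wild-type was 0.39, so most genes had a higher share of the knockout library, and ratios are given with this shift unless stated otherwise. Stem cell markers went both ways. Lgr5, low in both libraries, was at 3.13 TPM in wild-type and 1.55 TPM in knockout cells and Olfm4 at 0.2 and 0 TPM. Of 8 measured markers 5 (62.5%) were higher, among them Slc12a2 at 55.2 and 62.1 TPM, against 70.2% of measured genes. The list median was 0.18, or -0.21 relative to the median gene, and 6 of 8 lay below the median gene. Markers of general epithelium were abundant but lower in the knockout library, all 8 of 8, with a median log2 ratio of -0.83 and a summed level of 26010 against 15015 TPM (Krt8 at 9793 against 5410 TPM and Krt19 at 9542 against 5655 TPM). Proliferation markers were summed at 974 against 1214 TPM (16 of 16 measured, led by Ube2c and Pcna), stem cell markers at 116 against 128 TPM (8 of 10 measured, led by Slc12a2 and Axin2), and stromal markers at 66.6 against 321 TPM (7 of 9 measured, led by Vim and Col1a2). Enterocyte markers were summed at 291 against 868 TPM (6 of 10 measured). The higher sum was that of Fabp2, at 135 against 757 TPM, whereas Slc5a1 stood at 101 against 57.7 TPM, 4 of the 6 were lower and the median log2 ratio was -0.52. Totals were lower for immune markers at 55.6 against 22.2 TPM (8 of 9 measured, led by Cd52 and Cd68), and erythroid markers at 277 against 11.9 TPM (4 of 6 measured, led by Hba-a2 and Hbb-bs). Markers of hepatocytes and adipocytes, cells known for abundant lipid synthesis, were summed at 14.5 against 12.6 TPM (2 of 6 measured, Ttr and Apoa2) and 11.2 against 7.67 TPM (2 of 7 measured, Cidec and Car3).

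Most members were modestly lower in the knockout library. The median log2 ratio over the 31 members was -0.61, and their summed level was 3739 TPM in wild-type and 2241 TPM in knockout cells, or 59.9% of the wild-type level. Of 31 members 27 (87.1%) were lower in the knockout library, where 29.8% of measured genes were. At least 2-fold lower were 4 members (12.9%), Abcg1, Scd2, Fdps and Acat2, against 5.25% of measured genes. No member (0 of 31) was at least 2-fold higher, a difference seen in 23.1% of measured genes. The ratios of 14 members lay within the lowest 10% of all measured ratios, and those of 25 members within the lowest 20%.

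How far the members stood apart depended on what they were set against. Relative to the median gene 30 of 31 members were lower, against the 50% of measured genes that the median sets, and the median member was at -0.9999. On this scale 15 of 31 were at least 2-fold lower, where 10.2% of measured genes were. Among genes averaging 10 TPM or more, whose median ratio was 0.27, 26 of 29 members (89.7%) were lower, against 33.9% of such genes. Relative to the 8 epithelial markers the picture turned: the median member was 0.22 above their median and 8 of 31 members were below it, against 6.95% of measured genes. The members and the epithelial markers thus had lower ratios side by side, and the part of epithelial content in the members' difference was not tested. In bulk RNA, fewer cells of a type and less RNA per cell cannot be told apart.

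**Figure D1:**
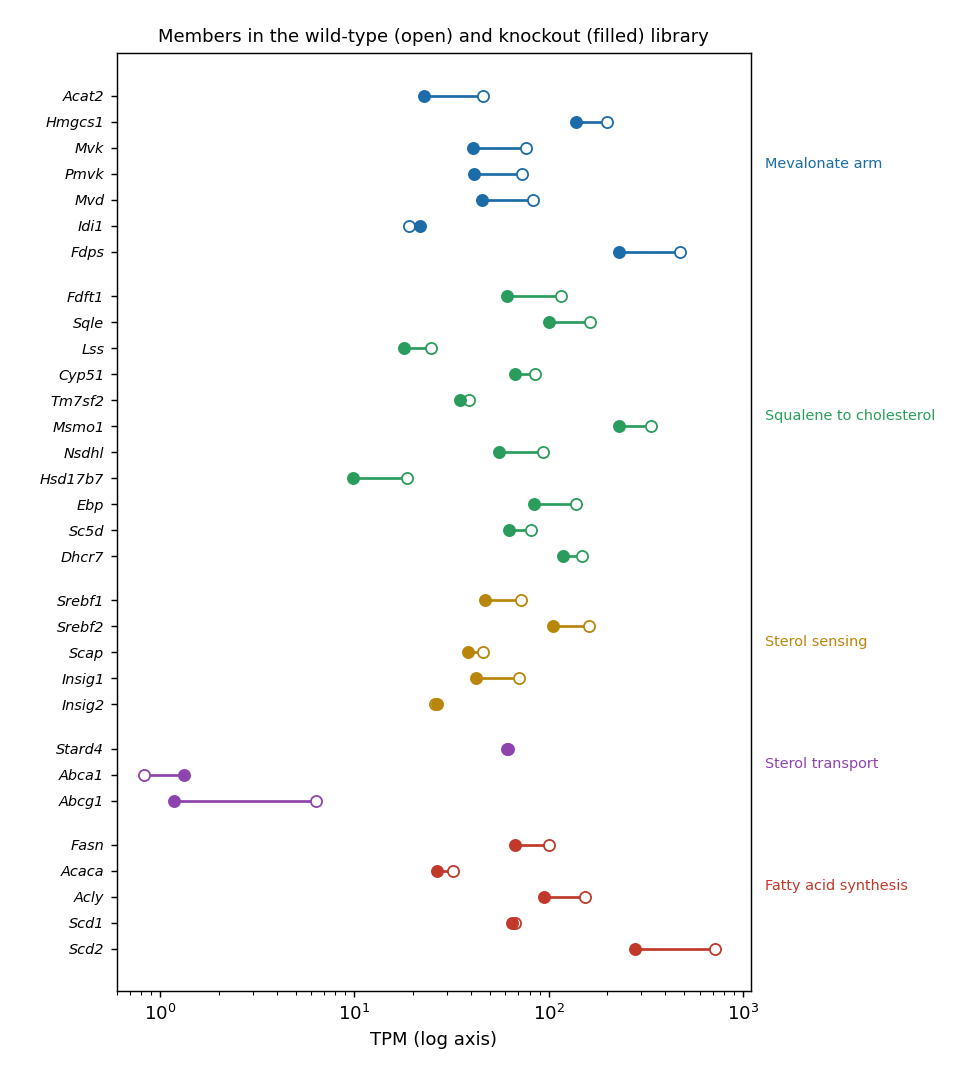
TPM of each of the 31 members on a log axis in the wild-type (open circle) and knockout library (filled circle), 1 library each, coloured by role. The filled circle lies to the left for 27 members, and Idi1, Insig2, Stard4 and Abca1 are the exceptions.

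**Figure D2:**
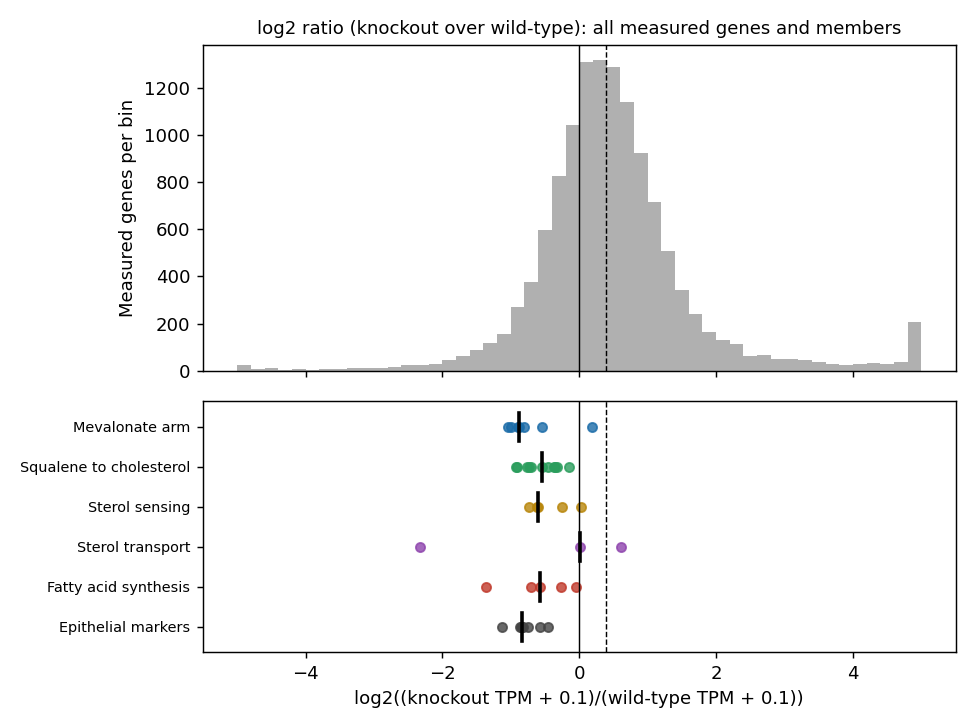
Top, log2 ratios of knockout over wild-type for the 12666 measured genes in bins of 0.2, with ratios beyond -5 and 5 counted in the end bins. Bottom, the members by role and the 8 epithelial markers, with each point a gene and the thick bar the median of its row. The solid line marks 0 and the dashed line the median gene at 0.39, and the members lie mostly left of both, in the same range as the epithelial markers.

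The mevalonate arm, which builds the isoprenoid units of cholesterol, was lower along nearly its whole length. Its summed level was 972 TPM in wild-type and 542 TPM in knockout cells, and the median log2 ratio of the 7 genes was -0.88. Fdps, which makes farnesyl diphosphate and lies at the branch point to prenylated proteins (chromosome 3, 89093588 to 89101967, GRCm38.p6), was the most abundant of these genes. Its level was 474 TPM in wild-type and 231 TPM in knockout cells, 2.05-fold lower. Acat2, the cytosolic thiolase that joins acetyl-CoA units (chromosome 17, 12943042 to 12960725), stood at 45.9 TPM and 22.8 TPM, 2.01-fold lower and so barely past the 2-fold line. Its near copy Acat3 was at 0 against 0.48 TPM, the split of reads between the copies is uncertain, and their summed TPM was 1.97-fold lower, which ends the 2-fold call. Acat1, the mitochondrial thiolase, stood at 52.1 against 76.3 TPM, in the opposite direction.

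The kinase and decarboxylase steps between mevalonate and isopentenyl diphosphate had similar ratios. Mvk, mevalonate kinase, stood at 76.2 TPM in wild-type and 40.9 TPM in knockout cells, with a log2 ratio of -0.90. Pmvk, phosphomevalonate kinase, stood at 72.7 against 41.5 TPM, a log2 ratio of -0.81. Mvd, the decarboxylase, stood at 83.5 against 45.3 TPM, a log2 ratio of -0.88. These consecutive enzymes were close in level within each library as well as in ratio. Hmgcs1, the synthase that commits acetyl-CoA units to the pathway, was more abundant and less far apart, at 201 against 138 TPM (log2 ratio -0.54). Idi1, the isomerase of isopentenyl diphosphate, was the only gene of the arm without a lower knockout level, at 19.1 against 21.8 TPM (log2 ratio 0.19, or -0.20 relative to the median gene). Its relative Idi2 was near 0, at 0 against 0.1 TPM.

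The promoters of 6 members are printed here because they come from the mevalonate arm (Hmgcs1, Acat2, Mvd and Idi1), the sterol branch (Hsd17b7) and the sensors (Insig1) and include the one promoter with the sterol element letters, that of Hmgcs1, and that of Idi1, whose ratio had the other sign. They were chosen after the values were seen. RefSeq start sites (GRCm38.p6) were matched for 24 of 31 members, and each window runs from 250 bases before to 50 bases after the start, 5′ to 3′ on the gene's strand. No window was matched for Fdps, Fdft1, Sqle, Stard4, Abcg1, Scd1 and Scd2, so these were not searched for any motif. Capitals mark the CCAAT box, known to bind NF-Y, a partner of SREBP factors, on either strand (CCAAT or ATTGG), and the sterol element TCACNCCAC. The windows are chr13:119690101-119690400 (plus strand) for Hmgcs1, chr17:12960676-12960975 (minus strand) for Acat2, chr8:122443373-122443672 (minus strand) for Mvd, chr1:169969156-169969455 (minus strand) for Hsd17b7, chr5:28071162-28071461 (plus strand) for Insig1 and chr13:8885356-8885655 (plus strand) for Idi1.
Hmgcs1: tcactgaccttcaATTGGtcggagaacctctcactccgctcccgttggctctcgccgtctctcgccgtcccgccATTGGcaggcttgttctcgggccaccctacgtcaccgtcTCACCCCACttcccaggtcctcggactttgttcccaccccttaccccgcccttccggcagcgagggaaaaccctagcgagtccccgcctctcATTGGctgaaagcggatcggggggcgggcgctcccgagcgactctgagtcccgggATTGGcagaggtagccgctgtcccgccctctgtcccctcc
Acat2: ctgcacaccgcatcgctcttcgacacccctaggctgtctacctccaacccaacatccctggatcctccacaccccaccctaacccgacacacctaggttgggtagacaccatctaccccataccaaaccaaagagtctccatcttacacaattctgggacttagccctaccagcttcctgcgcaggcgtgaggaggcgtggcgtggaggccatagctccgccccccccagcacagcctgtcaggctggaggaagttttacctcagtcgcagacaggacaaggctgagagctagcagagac
Mvd: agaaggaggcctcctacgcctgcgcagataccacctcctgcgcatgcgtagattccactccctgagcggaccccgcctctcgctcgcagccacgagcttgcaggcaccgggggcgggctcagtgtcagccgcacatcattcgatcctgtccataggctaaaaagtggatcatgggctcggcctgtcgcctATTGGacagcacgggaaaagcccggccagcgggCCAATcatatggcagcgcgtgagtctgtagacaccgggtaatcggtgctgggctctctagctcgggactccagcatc
Hsd17b7: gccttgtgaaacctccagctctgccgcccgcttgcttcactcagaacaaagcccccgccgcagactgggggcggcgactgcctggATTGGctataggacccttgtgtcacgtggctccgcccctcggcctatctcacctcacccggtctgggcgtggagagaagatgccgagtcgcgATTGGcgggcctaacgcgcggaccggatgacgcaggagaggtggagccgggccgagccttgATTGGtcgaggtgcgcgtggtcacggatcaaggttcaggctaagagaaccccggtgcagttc
Insig1: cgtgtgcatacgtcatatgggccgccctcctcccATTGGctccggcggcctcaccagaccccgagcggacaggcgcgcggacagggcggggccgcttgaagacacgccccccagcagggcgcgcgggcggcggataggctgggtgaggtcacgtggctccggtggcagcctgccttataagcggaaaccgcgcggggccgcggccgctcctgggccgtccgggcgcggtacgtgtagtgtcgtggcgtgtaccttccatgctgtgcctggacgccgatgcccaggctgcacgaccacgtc
Idi1: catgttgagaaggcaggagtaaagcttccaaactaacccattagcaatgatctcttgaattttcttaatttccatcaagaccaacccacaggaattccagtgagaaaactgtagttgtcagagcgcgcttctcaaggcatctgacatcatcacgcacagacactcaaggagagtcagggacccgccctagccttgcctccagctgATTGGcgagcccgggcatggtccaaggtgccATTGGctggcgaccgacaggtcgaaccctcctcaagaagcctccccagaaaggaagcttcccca

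The CCAAT letters were common in these windows. Searched on both strands, CCAAT was found in 20 of 24 members (83.3%), against 41.1% of all 27025 genes with a promoter in the table and 43.2% of the 10133 measured ones. Within the 100 bases before the start it was found in 16 of 24 members (66.7%), against 26.5% of measured genes. Of the printed promoters, Hmgcs1 held 4 copies, Hsd17b7 3 copies, Mvd and Idi1 2 copies each, Insig1 1 copy and Acat2 none (0). These promoters were chosen after the values were seen, and any relation of copies to ratios was not tested. The sterol element in the strict form TCACNCCAC was found in 1 of 24 members, Hmgcs1, and in 1.44% of all genes. Sterol elements with other letters were not searched for. GGGCGG, the GC box known to bind Sp1, was found in 21 of 24 members, 87.5% against 67.2% of measured genes. CACGTG, the E-box, which SREBP factors can also bind, was found in 6 of 24 members, Hsd17b7, Sc5d, Dhcr7, Scap, Insig1 and Abca1, 25% against 11.5% of measured genes. The strict repeat bound by LXR, AGGTCA followed by 4 free bases and AGGTCA again, was found in no member (0 of 24) and in 0.0148% of all genes. No 2 matches of different motifs overlapped (0 pairs among 104 matches). A match describes letters in the window and is not evidence of binding.

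**Figure D3:**
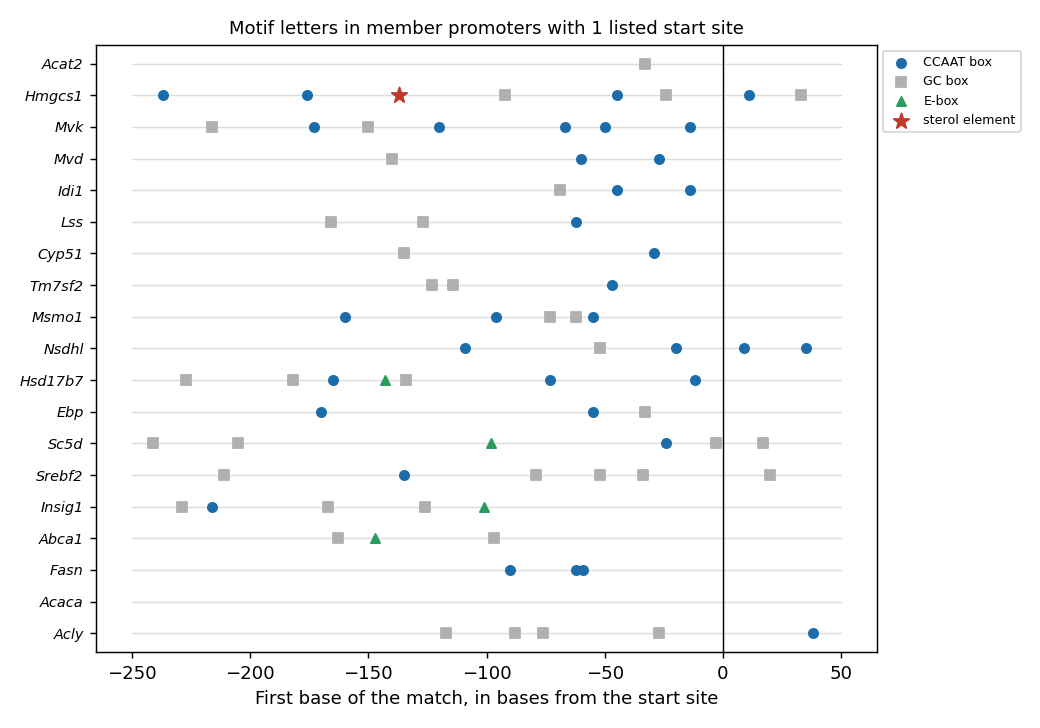
First base of each match to the CCAAT box, GC box, E-box and sterol element in the promoter windows of the 19 members with 1 start site in the table, in bases from the start site, both strands. CCAAT matches (blue) recur in the last 100 bases before the start, and the sterol element (star) is seen in Hmgcs1.

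From squalene to cholesterol all 11 genes were lower in the knockout library, none (0) by 2-fold. The median log2 ratio was -0.54, with a range of -0.93 to -0.15, and the summed level was 1247 TPM in wild-type and 842 TPM in knockout cells. The first 3 enzymes of the branch differed in level and in ratio. Fdft1, squalene synthase, stood at 116 TPM in wild-type and 60.9 TPM in knockout cells, 1.90-fold lower. Sqle, the epoxidase and a rate-limiting step, stood at 164 against 100.4 TPM, 1.64-fold lower. Lss, which closes the sterol rings, was less abundant, at 25 against 18.1 TPM, 1.38-fold lower.

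Enzymes that trim lanosterol differed in the size of their ratios. Msmo1, the methyl sterol oxidase, was the most abundant, at 336 against 230 TPM (log2 ratio -0.54). Its partners in removing methyl groups were Nsdhl, at 93.7 against 55.3 TPM (log2 ratio -0.76), and Hsd17b7, at 18.7 against 9.88 TPM (log2 ratio -0.91). Ebp, the sterol isomerase, stood at 139 against 83.7 TPM (log2 ratio -0.73). Nsdhl and Ebp are the 2 X-linked members. The libraries also differed in Y-linked RNA, with 4 Y-linked genes at 0.01 to 0.96 TPM in the wild-type and 4.25 to 9.48 TPM in the knockout library. For every member and list, X-linked or not, this difference cannot be told apart from genotype, and its part in the ratios was not tested.

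The remaining sterol enzymes were closest to equal. Cyp51, the lanosterol demethylase, stood at 85.4 against 66.9 TPM (log2 ratio -0.35). Sc5d, a sterol desaturase, stood at 81.4 against 62.8 TPM (log2 ratio -0.37). Dhcr7, which reduces the last double bond on the way to cholesterol, stood at 149 against 119 TPM (log2 ratio -0.33). Tm7sf2, a sterol reductase, was nearly equal, at 38.8 against 35 TPM (log2 ratio -0.15). The 18 synthesis enzymes as a whole had a median log2 ratio of -0.72, and 17 of 18 were lower in the knockout library.

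Of the 5 sterol sensing genes 4 were lower, none (0) by 2-fold. Both SREBP genes had nearly the same ratio. Srebf2 stood at 161 TPM in wild-type and 105 TPM in knockout cells, and Srebf1 at 72.2 and 47.3 TPM, each 1.53-fold lower. The level of Srebf2 was 2.23 times that of Srebf1 in either library, so their balance was the same. The table gives gene totals, so the Srebf1 isoforms were not told apart. Scap, the escort protein, stood at 45.9 against 38.5 TPM (log2 ratio -0.25).

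Insig1 and Insig2, which retain the SREBP and Scap complex, differed from each other. Insig1, itself a known SREBP target, stood at 70.7 TPM in wild-type and 42.3 TPM in knockout cells (log2 ratio -0.74). Insig2, known to be less dependent on SREBP, stood at 26.1 against 26.5 TPM (log2 ratio 0.02, or -0.37 relative to the median gene). The level of Insig1 was 2.71 times that of Insig2 in the wild-type and 1.60 times in the knockout library.

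The 3 sterol transport genes had no common direction. Stard4, a carrier of cholesterol between membranes, was nearly equal at 61.3 against 61.7 TPM (log2 ratio 0.01, or -0.38 relative to the median gene). Abcg1, an LXR-driven exporter also known from macrophages, had the lowest ratio of all members, at 6.32 against 1.18 TPM, 5.36-fold lower. Abca1, another LXR-driven exporter, was scarcely detected, at 0.83 against 1.32 TPM (log2 ratio 0.61). The 2 exporters thus had opposite signs at levels of a few TPM, and immune markers were lower in the knockout library (8 of 8 measured), a part in the Abcg1 difference that was not tested.

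All 5 genes of fatty acid synthesis were lower, with a summed level of 1076 TPM in wild-type and 533 TPM in knockout cells. Scd2, a stearoyl-CoA desaturase (chromosome 19, 44293676 to 44306864), was the most abundant of all members. Its level was 722 TPM in wild-type and 280 TPM in knockout cells, 2.58-fold lower. Scd1, its paralog 87.6 kb away on the same chromosome (44394450 to 44407709), was nearly equal, at 67 against 64.6 TPM (log2 ratio -0.05). The level of Scd2 was 10.8 times that of Scd1 in the wild-type and 4.33 times in the knockout library. The paralogs are similar, so reads shared between them are split by a model, and the other paralogs Scd3 and Scd4 were at 0.76 against 1.05 TPM and 0.5 against 1.23 TPM.

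The enzymes upstream of the desaturases were lower in smaller steps. Acly, which makes cytosolic acetyl-CoA from citrate for both sterols and fatty acids, stood at 155 against 94.5 TPM (log2 ratio -0.71). Fasn, fatty acid synthase, stood at 100.5 against 67.5 TPM (log2 ratio -0.57). Acaca, the acetyl-CoA carboxylase, stood at 32.2 against 26.6 TPM (log2 ratio -0.27). The median log2 ratio of the 5 genes, -0.57, lay next to the -0.54 of the squalene to cholesterol group and above the -0.88 of the mevalonate arm, and no difference between groups was tested.

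Neighbouring parts of sterol and lipid metabolism did not share one direction. Of 15 genes that process, escort or degrade SREBP and its regulators, 1 (6.67%) was at least 2-fold higher and none (0) lower, against 23.1% and 5.25% of measured genes. The median log2 ratio was 0.25, or -0.14 relative to the median gene. Pgrmc1, a sterol-binding membrane protein, stood at 56 against 120 TPM, and Erlin1 at 46.6 against 82.2 TPM, whereas Sec24c, a coat protein of vesicles leaving the endoplasmic reticulum, stood at 93.6 against 73.9 TPM and Erlin2 at 61.8 against 51 TPM. The proteases that cut SREBP, Mbtps1 and Mbtps2, stood at 54.3 against 61.6 TPM and 4.96 against 8.75 TPM. Mbtps2 was thus 1.76-fold higher, whereas Mbtps1 had a log2 ratio of 0.18 that turned to -0.21 relative to the median gene.

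LXR and oxysterol genes had a median log2 ratio of -0.44 over 11 measured genes of 13, with 2 (18.2%) at least 2-fold lower and 1 (9.09%) higher, against 5.25% and 23.1% of measured genes. Abcg5 and Abcg8, which together form the sterol exporter of the enterocyte apical membrane, stood at 8.29 against 1.1 TPM and 2.61 against 0.5 TPM, both lower in the knockout library as Abcg1 was. Lpcat3, a phospholipid remodelling enzyme and the most abundant of the list, stood at 181 against 133 TPM. The LXR genes Nr1h2 and Nr1h3 stood at 158 against 111 TPM and 19.4 against 13.4 TPM, and Rxrb, a partner receptor gene, at 34 against 39.4 TPM. Arl4c, a small GTPase gene, stood apart in the other direction, at 0.48 against 7.54 TPM.

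Genes of cholesterol storage, uptake and movement were higher in the knockout library for 15 of 21 measured (71.4%), near the 70.2% of all measured genes, and the list median was 0.50, or 0.11 relative to the median gene. Of these 21 genes 7 (33.3%) were at least 2-fold higher and none (0) lower, against 23.1% and 5.25% of measured genes, and 5 were at least 2-fold higher relative to the median gene, where 13.5% of measured genes were. Soat2, which esterifies cholesterol in enterocytes and hepatocytes, stood at 3.93 against 43.9 TPM, 11.2-fold higher, and Nceh1, which hydrolyses the esters, at 5.53 against 23.6 TPM, 4.27-fold higher. Cav1, the caveolin of cholesterol-rich membrane pits, stood at 7.44 against 91.1 TPM. Stromal cells express Cav1 strongly, and 6 of 7 measured stromal markers (85.7%) were higher in the knockout library too, against 70.2% of measured genes. At least 2-fold higher were 5 of the 7 (71.4%, against 23.1%). Of the collagen markers, Col1a1 was nearly equal at 7.95 against 8.05 TPM and Col3a1 lower at 5.73 against 3.18 TPM, unlike Col1a2. The part of stromal content in the Cav1 difference was not tested. Scarb1, a receptor for high-density lipoprotein, stood at 18 against 42.9 TPM and Vldlr, a lipoprotein receptor, at 2.5 against 15.4 TPM. At the low end were Lrp1 at 48.6 against 37.3 TPM and Osbp, an oxysterol-binding transfer protein, at 59.1 against 48.6 TPM, and the most abundant gene, Tmem97, stood at 137 against 113 TPM. Soat2, Scarb1 and Vldlr were higher, unlike nearly all synthesis genes but like 70.2% of measured genes. Lrp1, Osbp and Tmem97 were lower, as most synthesis genes were.

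The isoprenoid branch leaves the pathway at or before farnesyl diphosphate. Its median log2 ratio was 0.37 over 16 measured genes of 17, close to the median gene (-0.02 relative to it). Trit1, a tRNA isopentenyltransferase, stood at 4.79 against 16.1 TPM and Fnta, a subunit of the farnesyltransferase, at 33.2 against 67.4 TPM, the 2 genes at least 2-fold higher (12.5%, against 23.1% of measured genes). Fntb, the other farnesyltransferase subunit, stood at 28.7 against 17.7 TPM, so the subunits had opposite signs. Dolk, dolichol kinase, stood at 12.1 against 9.73 TPM and Nus1, a subunit of dolichol synthesis and the most abundant, at 56.8 against 66.8 TPM.

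Further fatty acid and lipogenic genes went both ways, with 10 of 20 measured (50%) lower, against 29.8% of measured genes, and a median log2 ratio of -0.01, or -0.40 relative to the median gene. By 2-fold or more, none (0) was higher and 1 (5%) was lower, against 23.1% and 5.25% of measured genes. Fads2, the desaturase that starts the synthesis of polyunsaturated fatty acids, was the most abundant and the lowest, at 531 against 167 TPM, and its neighbour enzyme Fads1 stood at 56 against 34.5 TPM. The level of Fads2 was 9.47 times that of Fads1 in the wild-type and 4.83 times in the knockout library, so for both abundant desaturase genes, Scd2 and Fads2, the excess over the paralog was smaller in the knockout library. Slc25a1, the citrate carrier that feeds Acly, stood at 209 against 126 TPM. Gpam and Mlxipl, an acyltransferase and a glucose-responsive factor, stood at 5.17 against 9.27 TPM and 13.8 against 23.5 TPM.

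**Figure D4:**
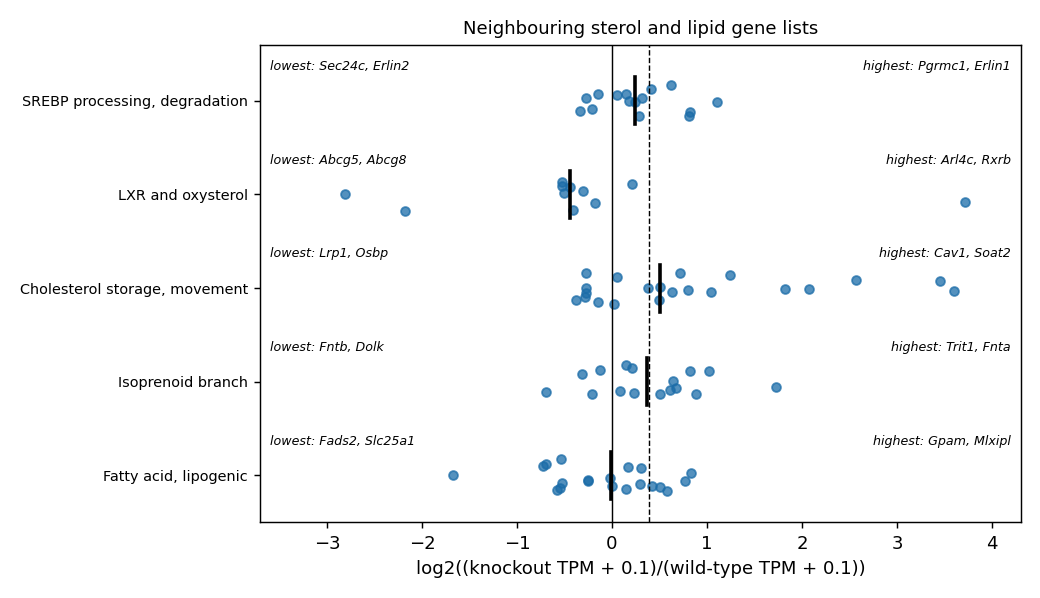
log2 ratios of knockout over wild-type for the measured genes of 5 neighbouring lists, each point a gene (spread vertically for sight only) and the thick bar the median. The solid line marks 0 and the dashed line the median gene at 0.39, and the 2 lowest and 2 highest genes of each list are named.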

How the data were processed

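Per the labels, libraries were prepared with an MGIEasy kit from column-purified RNA and read on BGISEQ-500. Per the file headers, the table the authors deposited gives FPKM and TPM values per gene for both libraries, rounded to 2 decimals. TPM is a share, so very abundant genes depress the rest. The submitters' processing notes name mm10, Bowtie2, RSEM and DESeq2, with no version or role. RSEM-type estimates split reads among similar genes by a model. One row without values was left out (18067 genes kept), and 0 value columns were unused. Sequencing depth is unknown. At the best of the many depth and length settings tried, low FPKM values gave whole reads (within 0.15) for 64.3% of 56 low genes in the wild-type library. The knockout library gave 65.1% of 106. Chance gives 30% at a fixed setting and more at the best of many, so these shares cannot be set against it. No counting interval is given.

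A pseudocount of 0.1 TPM was added to both values before taking the log2 ratio of knockout to wild-type, which understates differences of low genes, and folds are plain TPM ratios. Genes averaging 1 TPM or more were measured, and a 2-fold difference was counted with no test, because there was 1 library per group. The members and lists (5 neighbouring pathways and 9 marker lists) were chosen with earlier results of these data known. By rule the text names every member, the 2 highest, 2 lowest and most abundant gene of each pathway list and the 2 most abundant of each marker list. Acat1, Acat3, Idi2, Scd3, Scd4, Mbtps1, Mbtps2, Nr1h2, Nr1h3, Nceh1, Scarb1, Vldlr, Fads1, Lgr5, Olfm4, Col1a1 and Col3a1 were named after their values were seen. The rule for printed promoters, members past 2-fold with the sterol element, was met by none (0), so 6 were chosen afterwards. Of the members past 2-fold only Acat2 could be searched, because Abcg1, Scd2 and Fdps had no matched window. Gene positions and promoters are RefSeq (GRCm38.p6). The ratio code was tested on simulated data. Python 3.11.15, pandas 2.3.3 and numpy 2.4.6 were used.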

Additional observations from a re-analysis of the deposited data

How the results depend on the processing

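The direction of the member median held under every alternative to the pseudocount, the unit, the floor and the role groups left out, but its size and the 2-fold counts followed the scaling. The member median was -1.0002 under trimmed mean scaling and -0.9999 under median centring, and 0.22, the opposite sign, when centred on the 8 epithelial markers, a setting that, like the floor of 10 TPM, was chosen after seeing the data. The 4 members at least 2-fold lower, against 5.25% of measured genes, became 15 under median centring, against 10.2%. Their number was 16 under trimmed mean scaling, 7 without the 100 most abundant genes, 2 from FPKM and 1 under epithelial centring. For these last settings the share of measured genes was not computed, so the counts cannot be set against it. With Acat2 and its near copy Acat3 summed, also chosen after seeing the data, 3 were at least 2-fold lower. With a 1.5-fold threshold 16 were lower and 1 higher, against 10.6% and 40.1% of measured genes. With a 3-fold threshold 1 was lower and none (0) higher, against 2.42% and 10.9% of measured genes. Under epithelial centring 8 members were lower, against 6.95% of measured genes. On that scale 2 members were at least 2-fold higher, a count for which the share of measured genes was not computed. The pathway list medians moved with the same scalings. Under trimmed mean scaling and median centring they were -0.14 and -0.14 (SREBP processing), -0.84 and -0.84 (LXR), 0.12 and 0.11 (storage), -0.024 and -0.023 (isoprenoid), and -0.40 and -0.40 (lipogenic). Under epithelial centring they were 1.08, 0.39, 1.33, 1.1998 and 0.82 in that order. The lipogenic median, near 0, also changed sign when no floor was set (0.0745), at 5 TPM as the floor (0.0004) and when FPKM replaced TPM (0.0487). CCAAT was found in 11 of 24 members on the given strand alone. Of 31 members 22 changed sign in at least 1 alternative. Scd1 was at 0.0080 from FPKM. Idi1, Insig2 and Stard4 were at -0.20, -0.37 and -0.38 under either trimmed mean scaling or median centring, and Insig2 and Stard4 at -0.080 and -0.094 without the 100 most abundant genes. Under epithelial centring the ratio turned positive for Acaca (0.56), Acly (0.12), Cyp51 (0.48), Dhcr7 (0.50), Ebp (0.10), Fasn (0.26), Hmgcs1 (0.29), Insig1 (0.093), Lss (0.37), Msmo1 (0.29), Nsdhl (0.074), Pmvk (0.024), Sc5d (0.46), Scap (0.58), Scd1 (0.78), Sqle (0.12), Srebf1 (0.22), Srebf2 (0.22) and Tm7sf2 (0.68). These shifts follow from the construction of each scaling, which moves every ratio by nearly the same amount. No paired analysis was possible because each group has 1 library, and depth, which is unknown, limits what can be said of genes at a few TPM such as Abca1 and Abcg1.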

Other observations

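Across the 31 members, which share 2 libraries, the log2 ratio and the mean TPM had a Spearman correlation of -0.25, and across the 12666 measured genes of -0.30, given as descriptions. The members lie on 16 chromosomes, with at most 4 on one (Acaca, Acly, Fasn and Srebf1 on chromosome 11). In level, 28 of 31 members were above the median measured gene by mean TPM.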
